A study of Mus musculus with 20 samples.

Results

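Genes of the respiratory chain and ATP synthase, from both the nuclear and the mitochondrial genome, were followed in leukemic mouse spleens with and without deletion of Acly. Members were all gene symbols beginning with Ndufa, Ndufb, Ndufc, Ndufs, Ndufv, Uqc, Cox4 to Cox8, Atp5 or mt-, together with Sdha, Sdhb, Sdhc and Sdhd. The names also take in assembly factors (the Ndufaf and Uqcc genes), the ATP synthase inhibitor Atp5if1, pseudogenes, and the ribosomal and transfer RNAs of the mitochondrial genome. Of 134 such genes listed in either table, 120 reached a normalized count of 10 in at least 4 libraries of a table and 119 did so in both. The acute table kept 120 of its 132 members (101 nuclear, 19 mitochondrial) among 16363 genes tested. The survival table kept 119 of its 133 members (100 nuclear, 19 mitochondrial) among 16630 genes tested. In the acute table the members that stayed under the filter were 10 mitochondrial transfer RNAs, Ndufa4l2 and the pseudogene Uqcrh-ps2.

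The samples were 20 libraries of polyadenylated RNA from spleens of sublethally irradiated mice that had received an intravenous transplant of T-cell acute lymphoblastic leukemia (T-ALL) with a conditional Acly allele. Acly encodes ATP-citrate lyase, which makes cytosolic acetyl-CoA from citrate exported by mitochondria. In the acute arm, overtly leukemic mice were given tamoxifen (acute KO, 4 libraries) or corn oil alone (acute WT, 6 libraries) 72 h before collection. In the survival arm, tamoxifen (survival KO, 5 libraries) or corn oil (survival WT, 5 libraries) was given 48 h after the transplant, and collection waited for the humane endpoint. Tamoxifen was given intraperitoneally at 3 mg per mouse. All groups carried the same conditional leukemia, so WT means corn oil without deletion, and tamoxifen and deletion cannot be told apart. The driver of the recombinase, the number of independent leukemias and the strain, sex and age of the mice are not stated in the labels. Nor is it stated that libraries came from separate mice, so the p-values cover only the spread among libraries.

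The respiratory chain passes electrons from NADH (complex I) and succinate (complex II) through coenzyme Q, complex III and cytochrome c to oxygen at complex IV, and ATP synthase (complex V) uses the resulting proton gradient to make ATP. Complexes I, III, IV and V are built from subunits of both genomes, whereas complex II is wholly nuclear. The mitochondrial genome is transcribed as long precursors that are cut into the separate messenger, ribosomal and transfer RNAs. In proliferating leukemic T cells the same chain also regenerates the oxidised cofactors that the citric acid cycle needs to supply citrate.

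Acly RNA, the check of the labels, averaged 5670 ± 766 normalized counts in acute KO and 7735 ± 298 in acute WT (SD, n = 4 and 6; log2 fold change -0.46, limma adjusted p = 0.000866). It averaged 3091 ± 712 in survival KO and 7889 ± 561 in survival WT (SD, n = 5 each; log2 fold change -1.38, limma adjusted p = 0.00163). The acute call was lost with Trb scaling (-0.090, adjusted p = 0.654), which equalises the T-cell receptor beta (Trb) RNA across libraries. That scaling moved the acute median of all genes to 0.34. The call was also lost with the score of other cell types described next as a covariate (-0.78, adjusted p = 0.622). The spleens were not sorted, and the acute KO libraries carried more RNA of several other blood cell types. A score averaging 79 markers of other cell types ran from 0.570 to 1.76 in acute KO, highest in KO 2 and KO 3, and from -1.13 to -0.30 in acute WT. These ranges do not overlap, so a fit with the score as covariate can hardly tell it from KO. Lost calls in that fit were thus largely fixed in advance. Neutrophil markers summed to 185566 to 625813 in acute KO and 12591 to 51549.9 in acute WT, with 18 of 18 called higher. Monocyte and macrophage markers were called higher in 18 of 20, B-cell markers in 16 of 17 and NK and cytotoxic markers in 8 of 8. Plasma-cell markers were called higher in 6 of 8, dendritic-cell markers in 4 of 8 and platelet markers in 2 of 6. Erythroid markers were called in 0 of 18, with overlapping sums (18903 to 59423 in acute KO and 20133 to 36160.5 in acute WT). Over all genes 16.7% were called higher. Erythroid and platelet markers are not in the score. T-lineage markers summed to 247822 to 338580 in acute KO and 365680 to 380959 in acute WT, with 19 of 25 called lower (14.7% of all genes). The T-ALL genes Cd3e, Rag1, Ptcra and Dntt were high in every library, while Trac, the constant segment of the mature T-cell receptor alpha chain, was between 0 and 57.8 normalized counts. In the survival arm the same score, over 77 markers, overlapped between KO (-0.44 to 0.42) and WT (-0.026 to 0.14). The part of these other cells in the results was not tested beyond the values given beside them, and in unsorted spleen fewer cells of a type and less RNA per cell cannot be told apart.

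In acute KO spleens 48 of 101 nuclear members were called lower than in acute WT as deposited (limma, adjusted p under 0.05), where 14.7% of all genes tested were called lower. The nuclear median turned positive with Trb scaling (0.20 on the log2 scale, beside 0.34 for all genes). Only Cox6a2 was called higher among nuclear members, where 16.7% of all genes were. Of the 19 mitochondrial members 3 were called higher (mt-Co1, mt-Rnr1 and mt-Rnr2), a share near that of all genes, and 0 lower. The median log2 fold change was -0.16 over nuclear members, 0.23 over mitochondrial members and -0.023 over all genes tested. Values were negative for 95 of the 101 nuclear members and positive for 18 of the 19 mitochondrial members. Over all 16363 genes tested 8667 were negative and 7696 positive. All libraries of acute KO lay below all of acute WT for 22 nuclear members, where 9.94% of all genes tested did so. The number of nuclear members called lower was 25 without KO 2 and 31 without KO 3, where 9.38% and 10.03% of all genes were. The number of mitochondrial members called higher was 1 without KO 3 or KO 4 and 5 without WT 5. In these fits 13.05% to 16.996% of all genes were called higher.

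The summed nuclear members made up 1.18%, 1.07%, 1.11% and 1.10% of the normalized count in the 4 acute KO libraries, against 1.24% to 1.29% in the 6 acute WT libraries with a median of 1.27%. These groups did not overlap. The summed mitochondrial members took 2.64%, 2.43%, 2.60% and 3.20% in acute KO, against 1.93% to 2.63% in acute WT with a median of 2.43%. Here the groups overlapped. The ratio of the mitochondrial to the nuclear sum was 2.24, 2.27, 2.34 and 2.91 in acute KO and ran from 1.56 to 2.08 in acute WT, without overlap. In the survival arm the nuclear share was 1.15% to 1.23% in KO and 1.19% to 1.24% in WT, and the mitochondrial share 2.20% to 2.81% in KO and 1.94% to 2.96% in WT. Both survival shares overlapped. So did the survival ratio of the mitochondrial to the nuclear sum, at 1.80 to 2.40 in KO and 1.56 to 2.44 in WT.

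**Figure D1:**
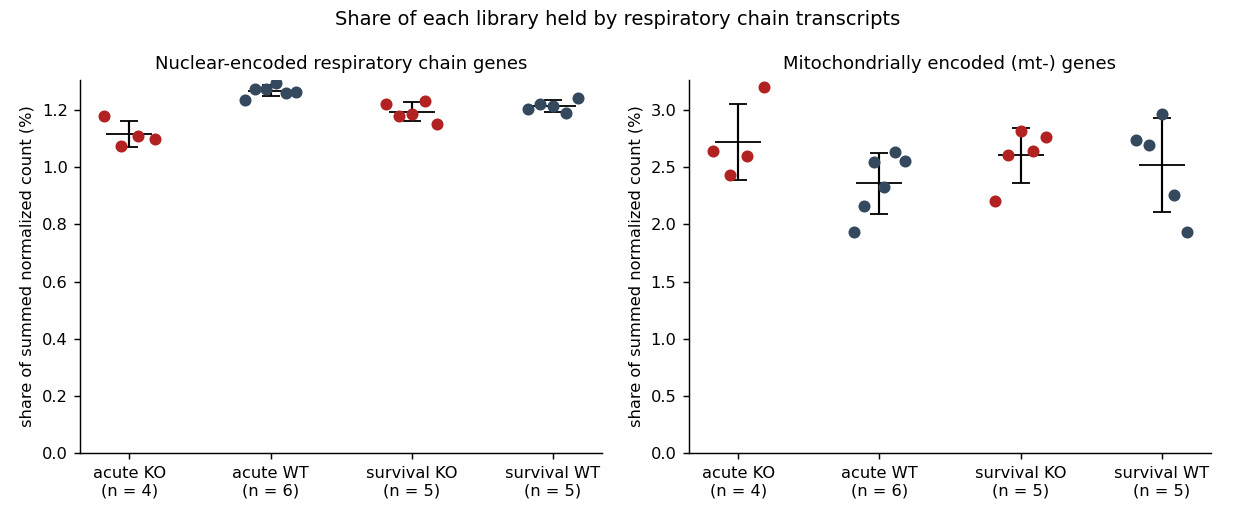
Share of each library's total normalized count (%) taken by the summed nuclear-encoded and the summed mitochondrially encoded members, KO left of WT in each arm. Each point is 1 library and each line a group mean. The acute KO points for nuclear genes, from 1.07% to 1.18%, all lie below the acute WT points, from 1.24% to 1.29%, and in the survival arm the groups overlap.

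Every nuclear complex had a negative median in the acute arm as deposited, whereas Trb scaling gave the nuclear members together a positive one (0.20, beside 0.34 for all genes). Complex I, the largest, had 18 of 40 subunits called lower and 0 higher (median -0.18, range -0.38 to 0.034), beside 14.7% and 16.7% of all genes. Complex II had 2 of 4, complex III 5 of 8, complex IV 5 of 16 and complex V 11 of 17 called lower, beside the same 14.7%. Assembly factors did likewise, with 4 of 8 Ndufaf genes and 3 of 6 Uqcc genes called lower (medians -0.27 and -0.25). Summed over its subunits, complex I came to 51154 to 56420 normalized counts in acute KO and 57193 to 62240 in acute WT, 89.5% of the WT mean. Complex II stood at 91.4%, complex III at 88.9%, complex IV at 90.6% and complex V at 89.5% of the WT mean. The summed libraries did not overlap for complexes I, II, III and V, and overlapped for complex IV (36346 to 39566 in KO and 39204 to 42996 in WT). Sums over the mitochondrial subunits were 111% of the WT mean for complex I, 120% for complex III, 119% for complex IV and 114% for complex V. In the survival arm these nuclear sums were 97.8% to 100.5% and the mitochondrial sums 102% to 108% of the WT mean.

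**Figure D2:**
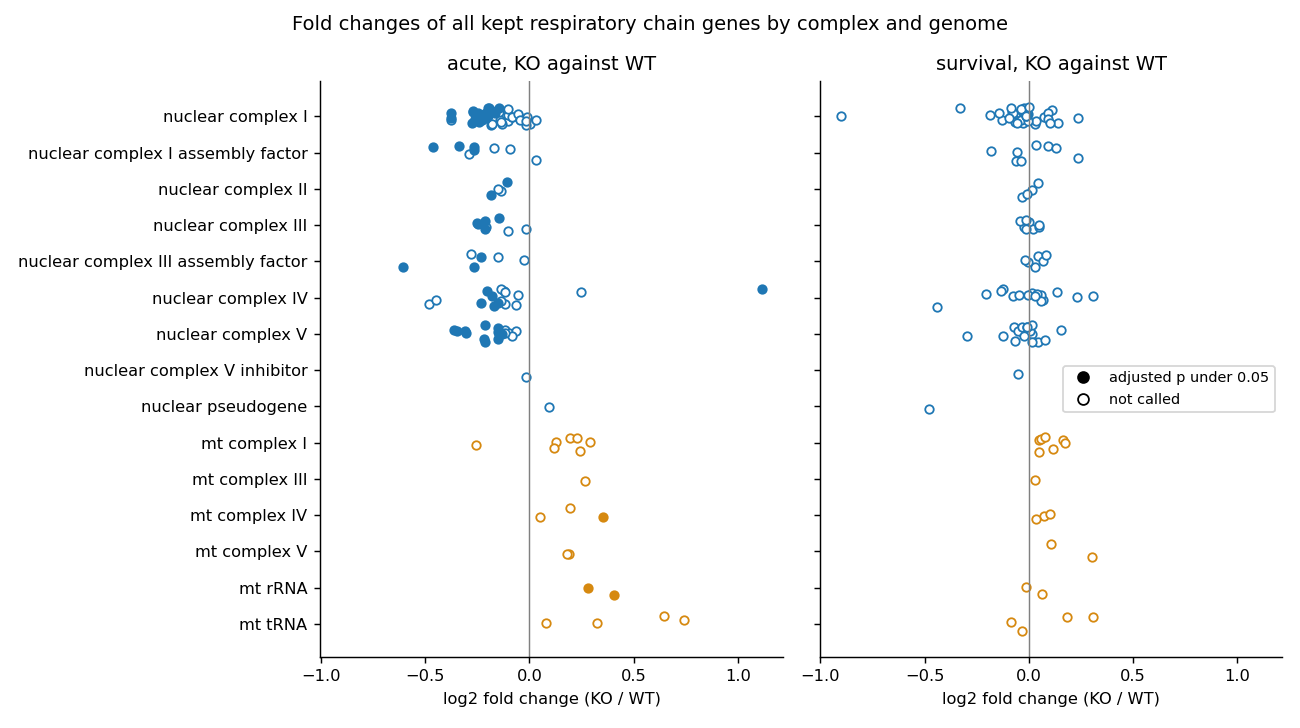
Log2 fold change (KO over WT) of each kept member, by complex and genome, in the acute and the survival table. Each point is 1 gene, and filled points were called at an adjusted p under 0.05. In the acute panel most nuclear points lie left of 0 and most mitochondrial points right of it. After Trb scaling the acute nuclear median is 0.20, beside 0.34 for all genes. In the survival panel no point is filled.

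For each complex the promoter of the named gene with the lowest adjusted p in acute KO, among those with a window in the table, is shown because nuclear respiratory genes are known to share sites for NRF1, for ETS-family factors such as GABP, and for YY1. They are RefSeq windows from 250 bases before to 50 after the gene start on mouse GRCm38.p6, another build than the GRCm39 of the expression tables. Capitals mark the letters searched on both strands, GCGCANGCG for NRF1, CCGGAAG for ETS factors and AAGATGGC for YY1.
Ndufc2, chr7:97399753-97400052, plus strand: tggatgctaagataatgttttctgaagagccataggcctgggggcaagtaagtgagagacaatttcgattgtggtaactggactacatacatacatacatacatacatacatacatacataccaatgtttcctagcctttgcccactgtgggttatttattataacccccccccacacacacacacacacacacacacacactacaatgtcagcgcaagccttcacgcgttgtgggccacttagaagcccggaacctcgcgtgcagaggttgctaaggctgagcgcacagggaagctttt
Sdhd, chr9:50603800-50604099, minus strand: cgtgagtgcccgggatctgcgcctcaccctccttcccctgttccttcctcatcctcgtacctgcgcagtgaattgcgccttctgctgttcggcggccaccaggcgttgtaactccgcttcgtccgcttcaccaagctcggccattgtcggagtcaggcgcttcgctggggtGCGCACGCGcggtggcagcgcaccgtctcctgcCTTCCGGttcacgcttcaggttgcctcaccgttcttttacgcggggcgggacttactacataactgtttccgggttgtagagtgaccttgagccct
Uqcrh, chr4:116075021-116075320, minus strand: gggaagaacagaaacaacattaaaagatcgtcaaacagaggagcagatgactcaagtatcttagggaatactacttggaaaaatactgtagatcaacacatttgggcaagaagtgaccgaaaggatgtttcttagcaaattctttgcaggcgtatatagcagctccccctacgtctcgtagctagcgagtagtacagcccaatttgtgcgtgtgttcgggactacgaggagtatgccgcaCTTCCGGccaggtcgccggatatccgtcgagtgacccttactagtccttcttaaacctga
Cox6a1, chr5:115348909-115349208, minus strand: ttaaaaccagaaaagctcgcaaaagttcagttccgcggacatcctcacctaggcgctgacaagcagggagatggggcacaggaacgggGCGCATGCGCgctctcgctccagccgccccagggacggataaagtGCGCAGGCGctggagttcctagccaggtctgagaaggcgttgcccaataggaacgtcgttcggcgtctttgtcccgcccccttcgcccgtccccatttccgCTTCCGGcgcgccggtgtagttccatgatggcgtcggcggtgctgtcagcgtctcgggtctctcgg
Atp5mc3, chr2:73911277-73911576, minus strand: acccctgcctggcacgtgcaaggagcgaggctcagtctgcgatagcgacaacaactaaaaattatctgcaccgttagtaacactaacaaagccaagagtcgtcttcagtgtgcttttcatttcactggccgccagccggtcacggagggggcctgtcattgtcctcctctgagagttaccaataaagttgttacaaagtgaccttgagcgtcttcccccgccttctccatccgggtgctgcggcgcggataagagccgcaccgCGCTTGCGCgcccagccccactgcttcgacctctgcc
The Cox6a1 window held 3 NRF1 matches, 2 of them overlapping on opposite strands, and 1 ETS match, the Sdhd window 1 of each, the Uqcrh window 1 ETS match and the Atp5mc3 window 1 NRF1 match. No match lay in the Ndufc2 window, which says only that these letters are absent there. Promoters were found for 78 of the 101 kept nuclear genes (13 by an older symbol), in 83 windows. The NRF1 letters were in 28.9% of these windows and in 6.25% of all 32851 windows in the table. For the ETS letters the shares were 21.7% and 8.86%, and for the YY1 letters 14.5% and 2.75%. The ETS letters end as the YY1 letters begin, so 1 stretch can hold both. Windows of genes called lower in acute KO held the NRF1 letters in 18 of 44 (40.9%), against 6 of 39 (15.4%) for genes not called. They held the YY1 letters in 3 of 44 (6.82%), against 9 of 39 (23.1%). The ETS letters were in 20.5% and 23.1%. These shares are descriptions, not sites shown to be bound. The regulators themselves were not called in acute KO, with log2 fold changes of -0.072 for Nrf1 (adjusted p = 0.308) and -0.039 for Gabpa (adjusted p = 0.430). After Trb scaling Nrf1 was at 0.29 and Gabpa at 0.33, beside a median of 0.34 over all genes.

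Among complex I subunits, which take electrons from NADH, the accessory subunit Ndufc2 had 2249.8, 2045, 2038 and 2176 normalized counts in the 4 acute KO libraries, and was between 2431 and 2672 with a median of 2595 in acute WT. Every KO library lay below every WT library (log2 fold change -0.27, SE 0.0458, adjusted p = 0.00103). Ndufa7, an accessory subunit, had 717, 657, 784 and 641 in acute KO, against values between 809.9 and 889.8 with a median of 840.1 in acute WT, with no overlap (log2 fold change -0.28, SE 0.0641, adjusted p = 0.00677). Ndufab1 is the mitochondrial acyl carrier protein, which serves both complex I and the fatty acid synthesis of mitochondria. It had 904, 766, 821 and 1016 in acute KO and lay between 950.1 and 1258 with a median of 1149 in acute WT, so that KO 4 overlapped with WT (log2 fold change -0.38, SE 0.0931, adjusted p = 0.00943). Ndufb4 had 366, 301, 304 and 333 in acute KO and lay between 335 and 500.5 with a median of 429.8 in acute WT (log2 fold change -0.38, SE 0.106, adjusted p = 0.0185). This gene has related copies, Ndufb4b and Ndufb4c, among which reads may be split, and its call was lost without KO 2 or KO 3 (adjusted p = 0.0559 to 0.0588). Ndufs1, the core subunit that holds several iron-sulfur clusters, stood at 98.9% of WT (log2 fold change -0.015, adjusted p = 0.817). Ndufs3, another core subunit, was called lower (log2 fold change -0.26, adjusted p = 0.0249). With Trb scaling Ndufc2 was at 0.095, Ndufa7 at 0.090, Ndufab1 at -0.011 and Ndufb4 at -0.0095, beside a median of 0.34 over all genes.

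The assembly factors of complex I had a lower median than its subunits (-0.27 beside -0.18). Ndufaf4, which binds early assembly intermediates, had 264, 192, 220.3 and 276 normalized counts in acute KO and lay between 297 and 389.5 with a median of 312 in acute WT. All KO libraries were below all WT libraries (log2 fold change -0.46, SE 0.119, adjusted p = 0.0116). Ndufaf7, a methyltransferase of the mitochondrial matrix, had 310.0, 318, 276 and 347 in acute KO and lay between 369 and 442 with a median of 383 in acute WT, again without overlap (log2 fold change -0.34, SE 0.086, adjusted p = 0.011). Ndufaf1, an assembly factor of the membrane arm, had 392, 397, 384 and 462 in acute KO and lay between 454 and 536 with a median of 479 in acute WT (log2 fold change -0.27, SE 0.0793, adjusted p = 0.0237). KO 4 reached into the WT range, and the call was lost without KO 1, KO 2, KO 3, WT 3 or WT 4 in turn (adjusted p = 0.0511 to 0.0756). Of 20 further complex I assembly genes outside the Ndufaf names, 7 were called lower and 0 higher, beside 14.7% and 16.7% of all genes. With Trb scaling 0 of these 20 were called lower and 3 higher, beside 0.513% and 38.6% of all genes. Ndufaf4 was then at -0.098, Ndufaf7 at 0.028 and Ndufaf1 at 0.10, beside a median of 0.34 over all genes.

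Complex II, succinate dehydrogenase, links the citric acid cycle to the chain and has 4 subunits, all nuclear. Sdha, the flavoprotein that oxidises succinate, had 7609, 7467, 7449.9 and 7491 normalized counts in acute KO and lay between 7937 and 8168 with a median of 8115 in acute WT. The groups did not overlap although the change was only to 92.9% of WT (log2 fold change -0.11, SE 0.0329, adjusted p = 0.0278), and the call was lost without KO 2, KO 3, WT 2, WT 3 or WT 6 in turn (adjusted p = 0.0535 to 0.0771). Sdhd, a membrane anchor, had 2099.5, 1981, 2111 and 2119 in acute KO and lay between 2289.6 and 2469 with a median of 2328 in acute WT, with no overlap (log2 fold change -0.19, SE 0.0428, adjusted p = 0.00652). The iron-sulfur subunit Sdhb (log2 fold change -0.14, adjusted p = 0.0693) and the other anchor Sdhc (-0.15, adjusted p = 0.0521) were negative and not called. After Trb scaling Sdha was 0.26 and Sdhd 0.18, beside a median of 0.34 over all genes.

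In complex III, which passes electrons on to cytochrome c, the core subunit Uqcrc2 had 4478, 4170.0, 4224 and 4484 normalized counts in acute KO and lay between 4797 and 5576 with a median of 5122 in acute WT. No KO library reached the WT range (log2 fold change -0.25, SE 0.0492, adjusted p = 0.00275). Uqcrh, the hinge protein that helps cytochrome c dock, had 2024, 1869, 1984 and 1891 in acute KO and lay between 1990.4 and 2479.6 with a median of 2339 in acute WT, so that KO 1 overlapped with the lowest WT library (log2 fold change -0.25, SE 0.0612, adjusted p = 0.00922). Uqcr11 had 1571, 1431, 1583 and 1291 in acute KO and lay between 1610.3 and 1847 with a median of 1697 in acute WT (log2 fold change -0.21, SE 0.0648, adjusted p = 0.0252). Its groups did not overlap, and its call was lost without KO 2, KO 4 or WT 4 in turn (adjusted p = 0.0529 to 0.0646). Uqcc1, an assembly factor for cytochrome b, had 263, 363, 286 and 289 in acute KO and lay between 344 and 528 with a median of 461 in acute WT. This was the most negative log2 fold change of all members, -0.60 (SE 0.127, adjusted p = 0.00394), with KO 2 inside the WT range. It remained negative, at -0.24, after Trb scaling. Uqcc3, another assembly factor, had 611, 602, 569.9 and 575 in acute KO and lay between 667 and 723 with a median of 694 in acute WT, without overlap (log2 fold change -0.23, SE 0.0526, adjusted p = 0.00583). Uqcc6 was called lower at -0.26 (adjusted p = 0.0453), a call lost without 8 of the 10 libraries in turn: all but KO 1 and WT 1 (adjusted p = 0.0621 to 0.141). After Trb scaling the other called genes of complex III named here were between 0.10 and 0.15, beside a median of 0.34 over all genes. Cyc1, the cytochrome subunit of complex III that the naming rule does not take in, was not called (log2 fold change -0.088, adjusted p = 0.448), whereas cytochrome c itself (Cycs) was lower (-0.18, adjusted p = 0.0184; 0.0521 without KO 3; 0.19 on the log2 scale with Trb scaling).

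Complex IV, cytochrome c oxidase, has several subunits with paired isoforms of different tissue use. Cox6a1, the isoform of most tissues, had 5260.4, 4528, 4790.5 and 4779 normalized counts in acute KO and lay between 5180.4 and 5841 with a median of 5439 in acute WT (log2 fold change -0.18, SE 0.05, adjusted p = 0.0185). Cox6a2, the isoform of heart and skeletal muscle, had 13.5, 35.8, 25.6 and 18 in acute KO and lay between 5.49 and 14.5 with a median of 10.4 in acute WT (log2 fold change 1.12, SE 0.367, adjusted p = 0.0365). KO 1 lay inside the WT range and the level was low throughout, with 7 libraries at 10 or more. Its value was highest in KO 2 and KO 3, the libraries with the most RNA of other cell types. With the other-cell score as covariate it was -1.28, in a fit that can hardly tell the score from KO, so no conclusion is drawn. The call was lost without KO 2, KO 3, WT 1, WT 4 or WT 5 in turn (adjusted p = 0.0552 to 0.129). Cox7a2l, which helps bind complex III to complex IV, had 4384, 3645, 3821 and 4084 in acute KO and lay between 4016 and 5053 with a median of 4730.2 in acute WT (log2 fold change -0.23, SE 0.0686, adjusted p = 0.0229). Cox7c had 2562, 2403, 2241 and 2526 in acute KO and lay between 2497 and 3048 with a median of 2819 in acute WT (log2 fold change -0.20, SE 0.0593, adjusted p = 0.0211). The calls of Cox6a1, Cox7a2l and Cox7c were each lost without KO 2 or KO 3 (adjusted p = 0.0512 to 0.0619, 0.0701 to 0.0763 and 0.0517 to 0.0772 in that order). After Trb scaling all 3 were positive, between 0.14 and 0.19, beside a median of 0.34 over all genes. Cox4i1 (-0.12), Cox6b1 (-0.12), Cox7a2 (-0.066) and Cox8a (-0.12), the common isoforms of their subunits, were negative and not called. Of the rarer isoforms, Cox4i2 was at -0.48, Cox6b2 at 0.25 and Cox7a1 at -0.45, none called. Cox7a1, the muscle isoform, nonetheless had all KO libraries (29.8, 28.5, 25 and 33.6) below all of WT, which lay between 35.7 and 51.5 with a median of 39.3. Of 26 assembly genes of complex IV 6 were called lower and 0 higher, beside 14.7% and 16.7% of all genes. The 6 became 3 without KO 1, KO 2, WT 4 or WT 6, where 9.38% to 15.4% of all genes were called lower. With Trb scaling 0 of the 26 were lower and 3 higher, beside 0.513% and 38.6% of all genes. Surf1, one of them, was at -0.20 (adjusted p = 0.0764).

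In complex V, ATP synthase, the largest falls were in small membrane subunits. Atp5mj had 1104, 984, 989 and 1177 normalized counts in acute KO and lay between 1185 and 1563 with a median of 1368 in acute WT, without overlap (log2 fold change -0.35, SE 0.0804, adjusted p = 0.00677). Atp5mk, which takes part in joining ATP synthases into dimers, had 1825, 1483, 1549.9 and 1532 in acute KO and lay between 1758 and 2115 with a median of 2047 in acute WT, where KO 1 overlapped (log2 fold change -0.31, SE 0.0728, adjusted p = 0.00775). Atp5mc1, Atp5mc2 and Atp5mc3 encode the same mature c subunit of the rotor and were not alike in their values. Atp5mc3 had 6037, 5654, 6135 and 5792 in acute KO and lay between 6159 and 7229 with a median of 6978 in acute WT, with no overlap (log2 fold change -0.21, SE 0.0506, adjusted p = 0.00776). Atp5mc2 had 416, 371, 358 and 489 in acute KO and lay between 426 and 615 with a median of 526 in acute WT (log2 fold change -0.36, SE 0.123, adjusted p = 0.0422). Its call was lost without KO 1, KO 2, KO 3, WT 1, WT 3 or WT 6 in turn (adjusted p = 0.0594 to 0.128). Atp5mc1 was at -0.10 and not called (adjusted p = 0.42), and the differences between the 3 genes were not tested. The catalytic beta subunit Atp5f1b had 30734, 28217, 29467 and 27403 in acute KO and lay between 31162 and 33556 with a median of 31881 in acute WT, without overlap (log2 fold change -0.15, SE 0.0466, adjusted p = 0.0265). That call was lost without KO 2, KO 3, KO 4, WT 3 or WT 4 in turn (adjusted p = 0.0524 to 0.0699). Atp5if1, the inhibitor that binds the enzyme when the gradient collapses, was at 98.8% of WT (log2 fold change -0.018, adjusted p = 0.806). After Trb scaling the values of the 5 called genes named here were between 0.0063 and 0.21, beside a median of 0.34 over all genes.

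**Figure D3:**
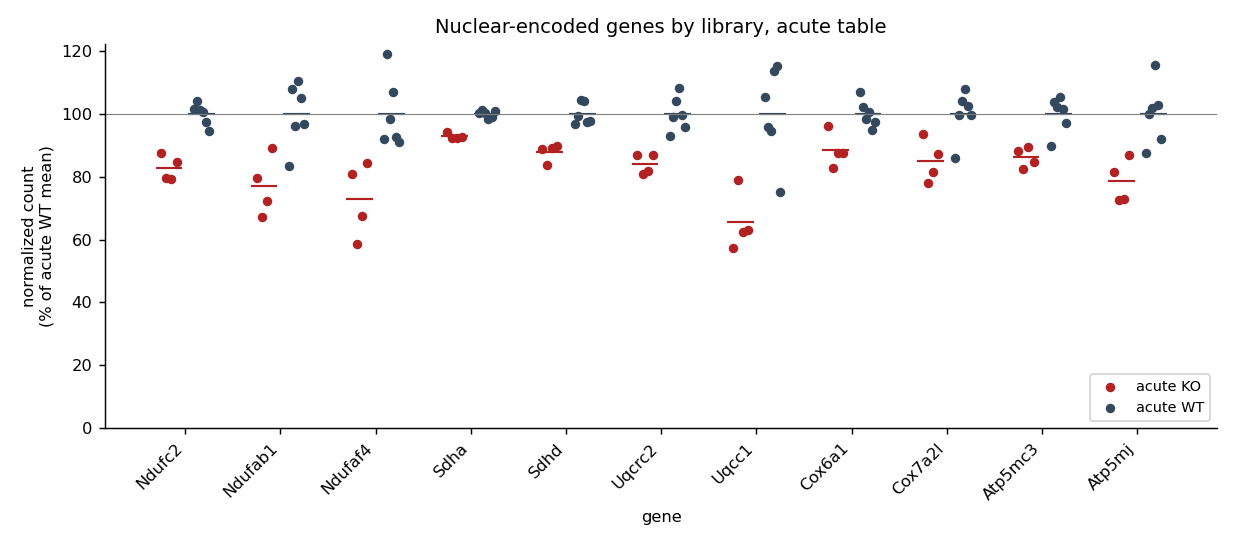
Normalized count of 11 nuclear-encoded genes in each acute library, as a percentage of the gene's acute WT mean, with acute KO left of acute WT. Each point is 1 library and each short line a group mean. Means of acute KO lie between 65.5% (Uqcc1) and 92.9% (Sdha) as deposited. After Trb scaling, which moves the median of all genes to 0.34, Ndufab1, Ndufaf4 and Uqcc1 stay negative while the other 8 genes turn positive.

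Genes of the mitochondrial genome had a positive median in the acute arm under each scaling tried, although few single genes passed the test. Of its 13 protein-coding genes 12 had positive values (median 0.19, range -0.25 to 0.35), 7 had an unadjusted p under 0.05, where 20.6% of all genes tested were higher at that p, and 1 was called. That gene, mt-Co1, encodes the catalytic core of complex IV and had 155027, 162473, 171066 and 186427 normalized counts in acute KO, against values between 103365 and 149165 with a median of 135902 in acute WT. All KO libraries lay above all WT libraries (log2 fold change 0.35, SE 0.102, adjusted p = 0.0201), as for 12.7% of all genes tested, and the call was lost without KO 3 or KO 4 (adjusted p = 0.0543 to 0.0547). The other 2 core subunits of complex IV were not called, mt-Co2 at 0.20 (adjusted p = 0.118) and mt-Co3 at 0.051 (adjusted p = 0.799). mt-Cytb, the cytochrome b of complex III, had 61804, 54754, 59181 and 70176 in acute KO and lay between 41638 and 56642 with a median of 52650.1 in acute WT, at 0.27 (adjusted p = 0.0526). It stayed just outside the threshold, with KO 2 inside the WT range.

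Both ribosomal RNAs of the mitochondrion were called higher. The large one, mt-Rnr2, had 15089, 17359, 17789.6 and 20657 normalized counts in acute KO and lay between 11192 and 15824 with a median of 13234 in acute WT (log2 fold change 0.41, SE 0.101, adjusted p = 0.01), with KO 1 inside the WT range. The small one, mt-Rnr1, had 7157, 8568, 8149.6 and 10036 in acute KO and lay between 6192 and 7936 with a median of 7123 in acute WT (log2 fold change 0.28, SE 0.0923, adjusted p = 0.0368). Its call was lost without KO 2, KO 3, KO 4, WT 1, WT 2, WT 3, WT 4 or WT 6 in turn (adjusted p = 0.0536 to 0.102). Libraries were made from polyadenylated RNA, and ribosomal RNA carries at most short tails, so these levels depend on what the selection let through. Complex I is the complex with the most mitochondrial subunits, and its 7 members ran from -0.25 (mt-Nd3) to 0.29 (mt-Nd4l). mt-Nd3 was the only negative protein-coding gene as deposited and positive after Trb scaling (0.11, beside 0.34 for all genes). It had 4436, 2504, 3119.6 and 5004 in acute KO and values between 3285 and 5073 with a median of 4492 in acute WT (adjusted p = 0.312). Its lowest values were in KO 2 and KO 3. mt-Nd6, the only protein-coding gene transcribed from the other strand, was at 0.23 (adjusted p = 0.0906). The subunits of complex V, mt-Atp6 (0.19) and mt-Atp8 (0.18), were not called. The 4 transfer RNAs kept had normalized counts of 1.68 to 483 and 0 calls.

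**Figure D4:**
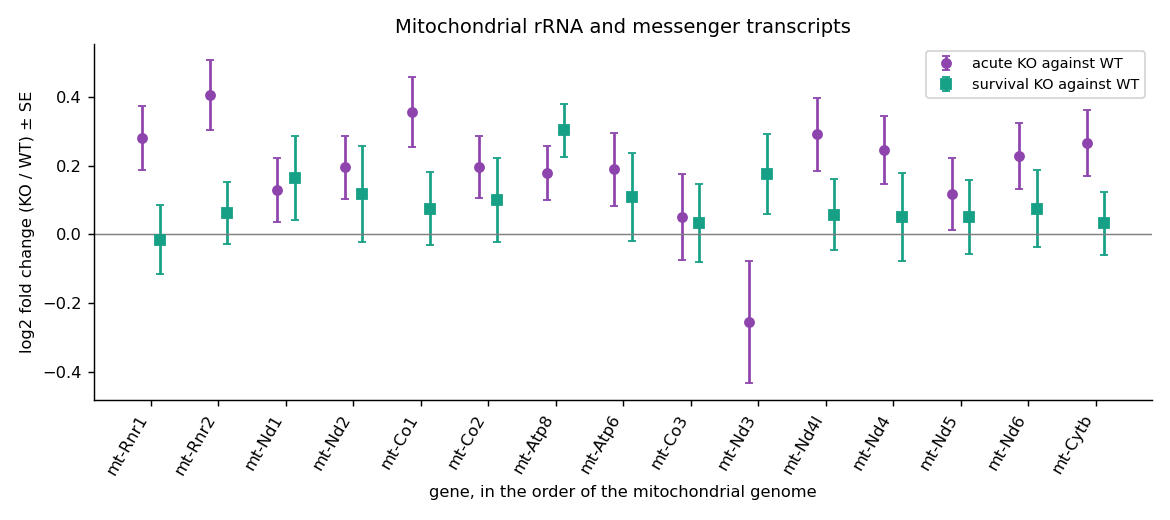
Log2 fold change (KO over WT) ± SE of the 13 protein-coding and 2 ribosomal RNA genes of the mitochondrial genome in the acute and the survival arm. In the acute arm 14 of the 15 values are positive under the deposited scaling and mt-Nd3 is negative, while in the survival arm values lie between -0.016 and 0.30. After Trb scaling, which moved the median of all genes to 0.34 (acute) and -0.33 (survival), all 15 are positive in the acute arm and all 15 negative in the survival arm.

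Neighbouring genes of the mitochondrial genome overlap, which limits how their reads can be told apart. The end of mt-Atp8 is also the start of mt-Atp6 over 43 bases, and this stretch is shown because mt-Atp8 gave the lowest p-value of the mitochondrial genes in the survival arm. Capitals mark the start codon of mt-Atp6 and the stop codon of mt-Atp8 (GENCODE annotation, GRCm38, plus strand).
mt-Atp8 and mt-Atp6, chrM:7927-7969: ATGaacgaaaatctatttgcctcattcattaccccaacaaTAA
mt-Nd4l and mt-Nd4 share 7 bases on the same strand, and mt-Nd5 and mt-Nd6 share 14 bases on opposite strands. Nuclear copies of mitochondrial DNA can also take up reads, and how the authors treated these is not stated.

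Among 34 nuclear genes that maintain and express the mitochondrial genome 10 were called lower as deposited and 1 higher, beside 14.7% and 16.7% of all genes. With Trb scaling 0 were called lower and 4 higher, beside 0.513% and 38.6% of all genes. The median was then 0.19, beside 0.34 for all genes. Without KO 2 and KO 3 together 3 were lower and 0 higher, beside 4.42% and 8.64% of all genes. Prorp, the nuclease that frees transfer RNAs from the precursor, averaged 480.1 ± 20.4 normalized counts in acute KO and 672 ± 54.6 in acute WT (SD, n = 4 and 6; -0.48, adjusted p = 0.000397). Its call was lost with Trb scaling (-0.11, adjusted p = 0.417). Lrpprc, which stabilises mitochondrial messenger RNAs, averaged 2094 ± 53.9 in acute KO and 2397 ± 118 in acute WT (-0.19, adjusted p = 0.00898). It was at 0.17 with Trb scaling, and its call was lost without KO 2 and KO 3 together (adjusted p = 0.0934) and with the replicate block (adjusted p = 0.0535). Neither gene overlapped between groups as deposited. Top1mt, a mitochondrial topoisomerase, was the gene called higher, with 43.4, 79.7, 71.8 and 41.3 in acute KO and values between 16.8 and 49.5 in acute WT (0.91, adjusted p = 0.0390). It was highest in KO 2 and KO 3, the libraries with the most RNA of other cell types. Its call was lost without KO 2, KO 3, WT 2, WT 4, WT 5 or WT 6 in turn (adjusted p = 0.0580 to 0.124). Top1mt was at -0.61 with the other-cell score as covariate, a fit that can hardly tell the score from KO. The packaging factor Tfam (-0.17, adjusted p = 0.190), the polymerase Polrmt (-0.099, adjusted p = 0.398) and the helicase Twnk (-0.044, adjusted p = 0.758) were not called, and were positive with Trb scaling.

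Of 79 genes of the mitochondrial ribosome, all nuclear, 39 were called lower and 0 higher (median -0.19), where 14.7% and 16.7% of all genes were. All KO libraries lay below all WT libraries for 27 of them, as for 9.94% of all genes. The number called lower was 25 without KO 3, where 10.03% of all genes were. It was 12 without KO 2 and KO 3 together, where 4.42% of all genes were. With Trb scaling 0 were lower and 2 higher, beside 0.513% and 38.6% of all genes. Among 22 genes of coenzyme Q synthesis and electron entry 6 were called lower and 2 higher, beside 14.7% and 16.7% of all genes. Without KO 3, 2 were lower, beside 10.03% of all genes. With Trb scaling 0 were lower and 4 higher, beside 0.513% and 38.6% of all genes. The 2 called higher were Gpd2, which feeds electrons from glycerol 3-phosphate to coenzyme Q, and Sqor, the sulfide quinone oxidoreductase. Sqor had 332.6, 1009.5, 652.9 and 405.7 normalized counts in acute KO and lay between 38.5 and 88.1 in acute WT (3.30, adjusted p = 3.84e-05). It was highest in KO 2 and KO 3, and neutrophil markers had a median log2 fold change of 3.72. With the other-cell score as covariate Sqor was at 0.81 and not called (adjusted p = 0.850). Gpd2 was at 0.25 (adjusted p = 0.0118), not called without KO 2 and KO 3 together, and at -0.15 with that covariate. The covariate fit can hardly tell the score from KO, so no conclusion is drawn from either value. The part of other cells was not tested. Myc, a regulator of many mitochondrial genes, averaged 5859.7 ± 836 in acute KO and 8513 ± 994 in acute WT (-0.54, adjusted p = 0.00186). With Trb scaling Myc was at -0.17 and not called (adjusted p = 0.284).

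The acute values were also set beside the markers of other cells. With the other-cell score as covariate, limma called 0 of all 16363 genes in the acute arm, at medians of -0.17 for nuclear and 0.34 for mitochondrial members. The score did not overlap between acute KO and acute WT, so the loss of calls was largely fixed in advance. In that fit the SE of Acly rose from 0.0747 to 0.194. No conclusion on other cells is drawn from it. Without KO 2 and KO 3, the libraries with the highest score, 8 nuclear members were called lower and 0 mitochondrial members higher, at medians of -0.16 and 0.29. In that fit 4.42% of all genes were called lower and 8.64% higher. Of the 30 members named by rule and called in the acute arm, 15 were called without each library in turn and 4 without KO 2 and KO 3 together. Trb scaling called 0 nuclear members lower and 9 higher, with 15 mitochondrial members higher, where 0.513% and 38.6% of all genes were. It moved the median of all genes to 0.34. Relative to that shift the nuclear median was -0.14 and the mitochondrial median 0.25, against -0.14 and 0.25 as deposited. Trb scaling moves all genes of a library alike, so this likeness was largely fixed in advance and is no support.

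At the endpoint of the survival arm no member passed the test. limma called 0 of 119 members in either direction, where 0.00601% of all genes tested (1 gene) were called higher and 0.00601% (1 gene, Acly) lower. At an unadjusted p under 0.05, 1 nuclear and 1 mitochondrial member were higher and 4 nuclear members lower, where 5.04% and 3.7% of all genes were. None of the 119 kept members had all KO libraries above all WT libraries, as 1.19% of all genes did. Median log2 fold changes were -0.013 over nuclear members, 0.075 over mitochondrial members and 0.0070 over all genes tested, and Trb scaling turned the mitochondrial median to -0.27 and moved that of all genes to -0.33. Leaving out 1 library in turn, the nuclear median ran from -0.035 (without KO 1) to 0.0091 (without KO 5) and the mitochondrial one from -0.00038 (without WT 5) to 0.14 (without WT 3). Ndufs4, an accessory subunit of complex I on the NADH-oxidising arm, had the lowest p-value. It had 703, 753, 777, 811 and 661 normalized counts in the 5 survival KO libraries, against 939.8, 1025, 949, 866 and 875 in the 5 survival WT libraries. All KO libraries lay below all WT libraries (log2 fold change -0.33, SE 0.0742, adjusted p = 0.218), as for 0.788% of all genes tested. mt-Atp8 had 4717, 5279, 5766, 5782 and 5677 in survival KO, against 4117, 4017, 5038, 4653 and 4264 in survival WT. KO 1 alone reached into the WT range (log2 fold change 0.30, SE 0.0762, adjusted p = 0.247). Cox6a1 had 4999, 4611, 4517, 4834 and 4516 in survival KO, against 5249, 5500.2, 4831, 5337 and 6181 in survival WT. Its values in KO 1 and KO 4 lay above that of WT 3 (log2 fold change -0.20, SE 0.0647, adjusted p = 0.342). The rest with an unadjusted p under 0.05 were Ndufa7 (-0.18), the copy Ndufb4b (-0.90) and the copy Ndufb4c (0.23), with adjusted p from 0.425 to 0.541. All 13 mitochondrial protein-coding genes had positive values, from 0.032 to 0.30, with overlapping groups for each. Over all genes tested 8666 of 16630 were positive. In the lists of mitochondrial gene expression, mitochondrial ribosome, electron carriers and assembly, 0 genes were called.

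The 2 arms were compared by subtracting the acute from the survival log2 fold change, fitted over all 20 libraries. Among the 119 members kept in both, 16 had a higher value in the survival arm and 0 a lower one, where 9.25% and 10.8% of 15873 genes did. All 16 were nuclear. Trb levels were higher in every survival KO library than in every survival WT library, though T-lineage sums overlapped. Trb scaling shifted genes in general, with a median difference of -0.67 over all 15873 genes, against 0.029 as deposited, and 67.9% of all genes called lower. Under that shift 0 members were called higher and the 15 differences given here were negative. Less the median of all genes, the nuclear median difference was 0.13 with Trb scaling and 0.14 as deposited. That likeness was largely fixed in advance, since the scaling moves all genes of a library alike. These 15 comprised 9 genes with complex I names, with the assembly factors Ndufaf1 and Ndufaf4 among them, Uqcrc2 and Uqcc3 of complex III, Cox7b of complex IV and Atp5f1b, Atp5mj and Atp5mk of complex V. The largest difference was that of Ndufaf4, 0.70 (SE 0.21, adjusted p = 0.0235), with log2 fold changes of 0.23 in survival and -0.46 in acute. Ndufaf4 had 339, 385, 292, 294 and 304 normalized counts in survival KO and 406, 291, 256, 200.2 and 249 in survival WT, widely overlapping. Ndufc2 differed by 0.24 (SE 0.0767, adjusted p = 0.035) and was near 0 in the survival arm. Ndufb3, an accessory subunit of complex I, had the smallest adjusted p, at 0.24 (SE 0.0691, adjusted p = 0.0161). Ndufa4, by background a subunit of complex IV despite its name, differed by 0.27 (SE 0.086, adjusted p = 0.0318) and Ndufv2, which carries an iron-sulfur cluster, by 0.30 (SE 0.102, adjusted p = 0.0401), though neither was called in either arm alone. The number called higher was 3 without acute KO 2, 7 without KO 3, 9 without KO 4, 8 without WT 2, 6 without WT 3, 6 without WT 4 and 9 without WT 5 of that arm. It was 7 without survival KO 1, 9 without KO 2, 9 without KO 3, 6 without KO 4 and 5 without WT 4, and it was 1 without acute KO 2 and KO 3 together. Leaving out single libraries, 5.51% to 10.6% of all genes were called higher, and 2.38% without acute KO 2 and KO 3 together. For the mitochondrial members 0 of 19 differences were called.

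**Figure D5:**
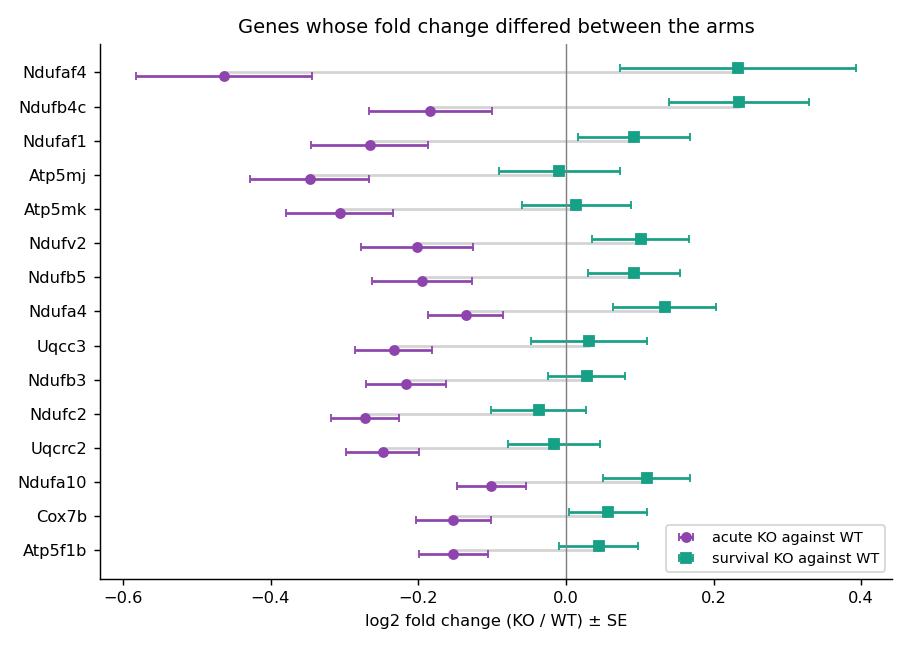
Log2 fold change (KO over WT) ± SE in the acute and the survival arm for 15 of the 16 members whose fold changes differed between the arms. All acute values are negative and survival values lie between -0.037 and 0.23. With Trb scaling, which moved the median difference of all genes to -0.67, each difference is negative.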

How the data were processed

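The 2 tables, 1 per arm, hold RNA levels of 20 leukemic spleens. The values the authors deposited are a signal of DESeq-normalized counts per gene symbol and library, with decimals, and the tables were scaled separately. The authors used kallisto 0.46.0 and DESeq, with GRCm39 as the build, per the submitters' processing notes. Annotation, gene summaries and the use of strand are not stated there. Libraries summed to 19432235 to 20731983 deposited normalized counts (acute) and 19998354 to 21623571 (survival). Raw depth is unknown, so no counting interval is given.

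Genes with a normalized count of 10 or more in at least 4 libraries of a table were tested on log2(normalized count + 1), a scale that understates the change of low genes. Models were fitted over all such genes with limma 3.58.1 in R 4.3.3 (lmFit, eBayes with trend), 2-sided, with Benjamini-Hochberg adjustment over all genes tested and calls at an adjusted p under 0.05, without block or covariate. Fold changes are KO over WT. Differences between arms were 1 contrast over all 20 libraries. The fit was tested on simulated data. The score of other cell types is the mean, over markers, of the log2 value less its mean in the table. Its markers were those of neutrophils, monocytes and macrophages, B cells, plasma cells, NK and cytotoxic cells, and dendritic cells.

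Members and lists were chosen with earlier results of these data known. Always named were all kept mt- genes, the Sdh genes, isoform pairs, Atp5if1 and 11 regulators and partners such as Acly, Cycs, Tfam and Myc. To these were added, per complex and arm, the 3 largest called rises and falls at a mean of at least 50, and all members called in the difference. Genes of low p in the survival arm, and Ndufs1, Ndufs3, Prorp, Top1mt, Cyc1, Sqor and Gpd2, were chosen after their values were seen. The rule also takes in 1 gene that is counted but not reported by name here. Replicate numbers come from library titles and give no sign of pairing, and same-numbered libraries correlated at -0.066 to 0.14. Alternatives were the pseudocount, the filter, 3 other scalings, the score as a covariate, the replicate block, robust eBayes, 1 fit over both tables and leaving out libraries. Figures and promoter searches used Python 3.11.15 with pandas 2.3.3, numpy 2.4.6 and matplotlib 3.10.9.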

Additional observations from a re-analysis of the deposited data

Results flagged for a closer look

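A library stood far from the others of its group in 13 of 252 groups of values of the named genes, where chance gives about 1 in 20. In acute KO, mt-Nd6 was high in KO 4, at 7047 normalized counts beside 6143 to 6297. Ndufaf1 was also high there, at 462 beside 384 to 397, and Cox6b1 was low, at 2425 beside 2719 to 2764. Sdhd was low in KO 2, at 1981 beside 2099.5 to 2119. Among acute WT libraries, WT 1 was high for 3 transfer RNAs of the mitochondrial genome: mt-Te at 45.6 beside 5.56 to 14.99, mt-Tl1 at 39.4 beside 1.68 to 14.04, and mt-Ts1 at 38.4 beside 7.79 to 18.5. Cox7a1 was high in WT 3, at 51.5 beside 35.7 to 40.3, and Atp5mc1 in WT 2, at 2886 beside 2287 to 2448.

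In survival KO, mt-Co3 was low in KO 1, at 52406 beside 56782 to 58169.8, and Ndufa10 in KO 5, at 2261 beside 2428 to 2447. Among survival WT libraries, WT 5 was high for Cox4i1, at 8944 beside 7441 to 7855. Atp5f1b was low in WT 4, at 29768 beside 32553 to 33129.

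The survival fold change exceeded the acute one for 16 genes by limma's test of the difference, 15 of which follow (log2 scale, survival less acute, adjusted p from 0.0161 to 0.0473). Among genes with complex I names the differences were 0.70 for Ndufaf4, 0.42 for Ndufb4c, 0.36 for Ndufaf1, 0.30 for Ndufv2, 0.29 for Ndufb5, 0.27 for Ndufa4, 0.24 for Ndufb3, 0.24 for Ndufc2 and 0.21 for Ndufa10. For complex III they were 0.26 for Uqcc3 and 0.23 for Uqcrc2, for complex IV 0.21 for Cox7b, and for complex V 0.34 for Atp5mj, 0.32 for Atp5mk and 0.20 for Atp5f1b. With libraries scaled to Trb genes, which moved the median difference of all genes to -0.67, each of these was negative.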

How the results depend on the processing

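Of the alternatives, the scaling to T-cell receptor beta (Trb) genes changed most. In the acute arm it called 6317 of all genes higher and 84 lower, 9 nuclear members higher and 0 lower and 15 mitochondrial members higher, with Acly at -0.090. In the survival arm, where Trb levels were higher in all KO than in all WT libraries, it called 79 genes higher and 7444 lower. It also called 83 nuclear members and 2 mitochondrial members lower there. Between the arms it called 0 members higher and 105 lower, with the median difference of all genes at -0.67. Quantile normalization called 4106 of all genes and 67 nuclear members lower in the acute arm and 0 nuclear members higher. Between the arms it called 29 members higher, where 15.7% of all genes were. Equal totals over nuclear genes called 65 nuclear members lower in the acute arm (16.6% of all genes) and 2 genes higher in the survival arm. Between the arms this scaling called 26 members higher, where 10.1% of all genes were. With the other-cell score as covariate 0 genes were called in the acute arm, members included, and Acly was at -0.78 without a call. In the survival arm 0 genes were higher, and 0 members differed between the arms. The score did not overlap between acute KO and acute WT, so the acute loss of calls was largely fixed in advance. The cause was not tested for any of these.

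Without a filter on low values 38 nuclear members were called lower and 0 higher in the acute arm, beside 7.83% and 11.1% of all genes. A filter of 50 gave 55 nuclear members lower and 0 higher and 5 mitochondrial members higher, beside 20.8% of all genes lower and 19.2% higher. In the survival arm that filter gave 3 genes higher. Robust eBayes gave 0 genes higher in the survival arm, and 25 were higher and 4 lower when both arms were fitted together. Without KO 2 and KO 3 together the acute arm had 1414 genes higher and 723 lower, 8 nuclear members lower and 0 higher and 0 mitochondrial members higher, and 1 member differed between the arms. The replicate block, by numbers that only name the libraries, gave 1186 genes lower, 13 nuclear members lower and 0 higher and 5 mitochondrial members higher in the acute arm, and in 1 of 4 acute and 0 of 5 survival libraries was the same-numbered library the most alike. Of the 30 named members called in the acute arm 13 were called with the block. The cause was not tested, beyond fewer libraries where some were left out.

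Leaving out 1 library in turn gave ranges. In the acute arm these were 2135 to 2916 genes higher, 1535 to 2528 lower, 25 to 55 nuclear members lower and 0 to 1 higher, 1 to 5 mitochondrial members higher and -0.52 to -0.38 for Acly. In the survival arm they were 0 to 20 genes higher, 1 to 4 lower, 0 members and -1.48 to -1.26 for Acly. Between the arms 3 to 24 members were called higher, where 5.51% to 10.6% of all genes were, and 0 to 1 lower. The count of 20 was without WT 4.

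The Trb scaling moved the median of all genes to 0.34 in the acute arm and to -0.33 in the survival arm. Log2 fold changes that changed sign, where either value was called, were nearly all under that scaling. In the acute arm these were Atp5f1b (0.21), Atp5if1 (0.35), Atp5mc2 (0.0063), Atp5mc3 (0.15), Atp5mj (0.020), Atp5mk (0.060), Cox6a1 (0.19), Cox7a2 (0.30), Cox7a2l (0.14), Cox7b (0.21), Cox7c (0.16), Cycs (0.19), Gabpa (0.33), Lrpprc (0.17), Ndufa7 (0.090), Ndufaf1 (0.10), Ndufaf7 (0.028), Ndufb3 (0.15), Ndufb5 (0.17), Ndufc2 (0.095), Nrf1 (0.29), Sdha (0.26), Sdhd (0.18), Uqcc3 (0.13), Uqcc6 (0.10), Uqcr11 (0.15), Uqcrc2 (0.12) and Uqcrh (0.12). In the survival arm these were Atp5f1b (-0.30), Atp5mc1 (-0.34), Atp5mk (-0.33), Cox6b1 (-0.28), Cox7b (-0.29), Cox8a (-0.31), Cycs (-0.29), Gabpa (-0.25), Lrpprc (-0.27), mt-Cytb (-0.31), Myc (-0.26), Ndufaf1 (-0.25), Ndufb3 (-0.32), Sdhb (-0.33), Sdhc (-0.30) and Uqcc3 (-0.31). Of the differences between the arms these were Atp5f1b (-0.51), Atp5mj (-0.37), Atp5mk (-0.39), Cox7b (-0.50), Ndufa10 (-0.50), Ndufa4 (-0.44), Ndufaf1 (-0.35), Ndufaf4 (-0.012), Ndufb3 (-0.47), Ndufb4c (-0.29), Ndufb5 (-0.42), Ndufc2 (-0.48), Ndufv2 (-0.41), Uqcc3 (-0.45) and Uqcrc2 (-0.48). With the score as a covariate these were Atp5mc2 (0.023), Atp5mk (0.042), Cox6a1 (0.051) and Cox6a2 (-1.28), and Gpd2 (-0.15) and Top1mt (-0.61). The settings for these last 2 genes and for the pathway lists were chosen after seeing the data.

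Pseudocounts of 0.5 and 5 kept the counts of either arm within 1.5 times, as did 0.5 those between the arms. Less the median of all genes, the acute nuclear median was -0.16 to -0.12 under all alternatives but quantile normalization (-0.079), and the mitochondrial one 0.19 to 0.37. Pseudocounts, robust eBayes and scaling by a factor per library can hardly move these values, so their likeness there is no support. Quantile normalization can move genes unequally. Depth is unknown, and 10 transfer RNAs lay under the filter.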
